A study of Mus musculus with 6 samples.

Results

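The dystrophin complex and membrane repair genes were followed as H3K27ac peaks in mouse quadriceps. The 9 genes were Dmd, Utrn, Dag1, Sgca, Sgcb, Sgcd, Dtna, Dysf and Cav3, and their peaks were all those that the authors' annotation assigned to one of them by the nearest transcription start. This gave 59 of the 46988 peaks listed for control mice and 54 of the 40721 listed for detrained mice, 113 of 87709 in all. Every mouse was wild type, labelled as strain C57BL/6 (the labels of the 2 input libraries read C57BL/7 and C57BL/8), and per the study's methods a male C57BL/6J. From 8 weeks of age, mice of both groups were caged singly for 4 weeks, the sedentary controls without a running wheel and the detrained mice with one. Detrained mice were then rested for 72 hours before harvest. Each group had 2 H3K27ac libraries, each from a single quadriceps of 1 animal, and 1 input library of sheared chromatin without immunoprecipitation. The comparison asks how the mark at these genes differed between sedentary muscle and muscle rested after training.

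Dystrophin links the actin cytoskeleton under the muscle fibre membrane to dystroglycan, which crosses the membrane and binds the basement membrane outside, and the sarcoglycans sit beside it in the membrane. The complex protects the fibre membrane from tearing during contraction, and loss of its members causes muscular dystrophies. Dysferlin and caveolin-3 act beside it, in patching torn membrane and in shaping membrane pits. H3K27ac is an acetyl mark on histone H3 found at active promoters and enhancers.

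The H3K27ac libraries held 20805019 to 22400894 tags, where a tag is an aligned read as HOMER counts it, and the inputs held 10812470 tags in control and 21298438 in detrained mice. The controls are named C2 and C3 and the detrained libraries Ex1 and Ex2, and paired values below are in that order. Between 44.7% and 49.4% of the tags of each H3K27ac library lay in listed peaks. Levels are given as normalised tags, which are tags scaled to a library of 10000000, or as density, which is normalised tags per kb of called peak. The peak lists were called separately in each group, so a difference can lie in the called length as well as in the tags, and both scales are given below. With 2 libraries against 2, an exact permutation test cannot give a two-sided p under 0.333, so the groups were compared without one, and the counting intervals below cover counting error only. Signal in bulk muscle cannot tell fewer cells of a type from less mark per cell. Of 8 markers of the skeletal muscle fibre 7 had a peak in each group (Tnnt3 had none assigned), and their summed tags were 5300 and 6752 in the controls C2 and C3, and 6935 and 6534 in the detrained Ex1 and Ex2. Summed tags of the markers of satellite cells, leukocytes, fibroblasts, smooth muscle and pericytes, and Schwann cells were all higher in both detrained libraries than in both controls. Those of endothelium overlapped, at 2289 to 2701 in controls and 2365 to 3006 in detrained mice. For leukocytes the range was 213 to 244 in controls and 312 to 370 in detrained mice, and for fibroblasts 2722 to 2811 and 3223 to 3336. Satellite cell markers summed to 173 to 179 and 227 to 246, smooth muscle and pericyte markers to 938 to 1013 and 1114 to 1191, and Schwann cell markers to 302 to 313 and 438 to 478. Ptprc, which marks leukocytes, had a peak in detrained mice alone, and the adipocyte markers Adipoq and Plin1 had none in either group, while Lep had 1 in controls. Of 6 genes not of this tissue, Apoa1 had peaks in both groups and Ins2 in detrained mice, and their sum was 358 to 359 in controls and 391 to 426 in detrained mice. The part of these cells in the results below was not tested.

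The windows just before the starts ranged from CpG-poor to CpG-rich, and 8 of them are shown because the extent and strength of the acetylated region at these starts is described further down. Each window is the 250 bases before a start, 5′ to 3′ along the gene, on build GRCm38.p6 (mm10), from RefSeq except where GENCODE M21 is named. Capitals mark matches, on either strand, to the GC box GGGCGG, the CCAAT box CCAAT, the TATA box TATAAA, the MEF2 motif CTANNNNTA, the E-boxes CAGCTG and CACCTG, the MEF3 motif TCAGGTT, the AP-1 motif TGANTCA and the ERR motif TCAAGGTCA. Matches can overlap, and they describe letters and not binding.
Dmd, full-length, chrX:82948620-82948869, plus strand: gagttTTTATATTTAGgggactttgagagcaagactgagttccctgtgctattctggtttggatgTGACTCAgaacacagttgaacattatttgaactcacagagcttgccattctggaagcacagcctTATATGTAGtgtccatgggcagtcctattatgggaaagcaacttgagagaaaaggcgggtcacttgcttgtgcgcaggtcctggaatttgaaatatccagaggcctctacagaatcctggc
Dmd, short, chrX:85048045-85048294, plus strand: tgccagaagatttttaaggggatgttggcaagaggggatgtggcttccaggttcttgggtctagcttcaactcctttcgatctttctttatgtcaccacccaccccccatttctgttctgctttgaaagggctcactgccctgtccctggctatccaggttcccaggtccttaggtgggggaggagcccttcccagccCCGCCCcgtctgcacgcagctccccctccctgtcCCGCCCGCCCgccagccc
Utrn, RefSeq start, chr10:12861736-12861985, minus strand: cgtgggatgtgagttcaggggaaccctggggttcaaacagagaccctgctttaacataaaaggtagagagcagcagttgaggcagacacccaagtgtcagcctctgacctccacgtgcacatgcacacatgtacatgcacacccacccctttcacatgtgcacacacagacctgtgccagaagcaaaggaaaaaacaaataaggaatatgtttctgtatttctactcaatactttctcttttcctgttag
Utrn, GENCODE M21 start, chr10:12869366-12869615, minus strand: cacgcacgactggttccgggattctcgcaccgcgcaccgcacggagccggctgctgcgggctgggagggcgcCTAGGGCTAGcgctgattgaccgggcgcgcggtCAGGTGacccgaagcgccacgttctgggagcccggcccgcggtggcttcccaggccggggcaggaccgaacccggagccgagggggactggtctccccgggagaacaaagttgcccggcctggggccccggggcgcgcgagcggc
Dag1, chr9:108263959-108264208, minus strand: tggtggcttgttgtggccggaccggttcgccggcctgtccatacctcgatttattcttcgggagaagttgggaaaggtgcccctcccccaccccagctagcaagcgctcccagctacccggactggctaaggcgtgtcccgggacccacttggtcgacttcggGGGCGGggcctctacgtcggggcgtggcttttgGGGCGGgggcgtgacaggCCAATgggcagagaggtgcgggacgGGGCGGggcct
Sgca, chr11:94976328-94976577, minus strand: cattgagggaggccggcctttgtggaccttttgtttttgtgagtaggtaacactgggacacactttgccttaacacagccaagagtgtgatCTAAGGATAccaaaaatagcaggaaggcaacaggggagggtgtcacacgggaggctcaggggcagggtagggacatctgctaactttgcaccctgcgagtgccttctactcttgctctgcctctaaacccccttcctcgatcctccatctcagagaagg
Sgcb, chr5:73647738-73647987, minus strand: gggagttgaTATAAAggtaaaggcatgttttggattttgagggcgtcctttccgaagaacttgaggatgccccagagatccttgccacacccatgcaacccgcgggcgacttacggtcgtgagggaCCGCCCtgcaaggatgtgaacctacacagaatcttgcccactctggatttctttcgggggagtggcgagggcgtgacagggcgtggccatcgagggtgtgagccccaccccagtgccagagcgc
Cav3, chr6:112459255-112459504, plus strand: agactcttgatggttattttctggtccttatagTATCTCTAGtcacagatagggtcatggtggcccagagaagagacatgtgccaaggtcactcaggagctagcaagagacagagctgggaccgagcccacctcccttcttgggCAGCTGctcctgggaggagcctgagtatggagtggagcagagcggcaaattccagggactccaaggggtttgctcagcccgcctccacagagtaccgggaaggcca

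RefSeq windows were found for 8 of the 9 genes, and none for Dtna. Including both starts of Dmd, Dag1, Utrn and Dysf, 12 windows were read, of which those of Dag1 overlap each other. They ranged from 45.2% G and C at the full-length Dmd start to 75.2% at the GENCODE start of Utrn, against a median of 52.4% over 32817 windows of the same length. The full-length Dmd window held 2 CpG dinucleotides and those of Sgca and Cav3 held 4 each, while the Dag1 window printed above held 21. A MEF2 match was present in 5 of the 12 windows, those of full-length Dmd, Sgca, Cav3, the upstream Dysf start and the GENCODE Utrn start, and in 19.0% of all windows. GC boxes were present in 6 of the 12 and in 32.7% of all windows, and none lay in the windows with a MEF2 match. The E-box CAGCTG was found only in the Cav3 window, and in 13.0% of all windows. CACCTG lay in the GENCODE Utrn window alone of the 12 and in 17.2% of all, and AP-1 in the full-length Dmd window alone and in 6.75% of all. CCAAT boxes lay in the 2 Dag1 windows and in 33.8% of all, and TATA boxes in the full-length Dmd and Sgcb windows and in 12.4% of all. No member window held the MEF3 or ERR letters, which lay in 3.50% and 0.387% of all windows. Over the central 500 bp of the 59 control peaks, 28 (47.5%) held a MEF2 match, against 39.1% of all control peaks, and 6 (10.2%) held a GC box, against 21.1%. These centres had a median of 44.4% G and C, against 48.2% over all control peaks.

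The peaks of the 9 genes lay mostly in introns and far from a start. In control mice 48 of the 59 lay in introns (81.4%), and in detrained mice 42 of the 54 (77.8%), against 50.8% and 49.1% of all listed peaks. A distance of 10000 bp or more from the nearest start was found for 39 control and 35 detrained peaks, which was 66.1% and 64.8%, against 59.6% and 57.5% of all peaks. By the authors' annotation, which follows the centre of a peak, 2 control peaks (3.39%, against 11.2% of all) and 0 detrained peaks (against 12.6% of all) were promoter peaks. By extent, however, 12 control and 11 detrained peaks contained an annotated start of their gene, and in control mice these were the strongest peak of every gene except Dmd. In detrained mice the exception was Dysf, whose 3′ end peak held 357.3 normalised tags, against 290.8 and 237 at its starts. Enrichment over input had a median of 2.17 on the log2 scale over the control peaks and 2.19 over the detrained peaks, against 2.25 and 2.20 over all peaks.

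**Figure D1:**
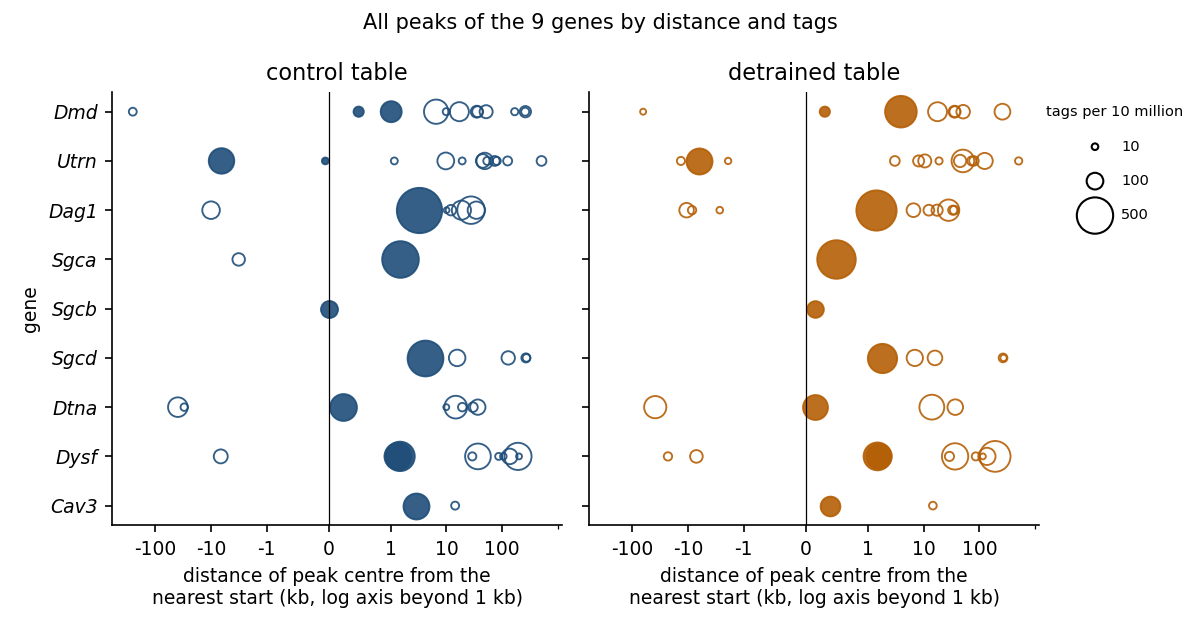
Every peak of the 9 genes, by distance of its centre from the nearest start in kb on the x axis, with circle area rising with the normalised tags. Left, control table (59 peaks). Right, detrained table (54 peaks). Filled circles contain an annotated start of the gene. The axis is linear within 1 kb of the start and logarithmic beyond. The strongest control peak of Utrn is centred 6454 bp upstream of the RefSeq start, while that of Sgcb lies on the start.

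Per length, the sarcoglycan genes Sgca and Sgcb carried the densest mark in control mice. The density over all called sequence of a gene was 93.4 ± 9.0 tags per kb (SD, n = 2) for Sgca and 91.5 ± 16.1 for Sgcb, and the libraries of the 2 genes overlapped. A gap followed to Dag1 (44.7 ± 1.85), Dysf (44.7 ± 4.71) and Sgcd (44.6 ± 5.25), whose libraries overlapped from each to the next. Dtna followed at 38.7 ± 1.77, then Cav3 at 33.7 ± 1.86 and Utrn at 33.0 ± 0.387, which overlapped, and Dmd was last at 29.0 ± 4.86. This density mixes start and distal peaks in unlike parts. Peaks containing a start held 90.5% of control tags at Sgca and 100% at Sgcb, but 35.7% at Dtna, 38.3% at Utrn and 24.5% at Dmd. Cav3 ranked low with 93.4%. In detrained mice Sgcb stood first at 87.9 ± 3.66 and Sgca next at 67.5 ± 2.69, followed by Cav3 at 55.4 ± 5.93, with a called length of 2872 bp against 7994 bp in control mice. Dmd (31.2 ± 3.22) and Utrn (31.8 ± 4.31) overlapped at the low end, and between them and Cav3 lay Dtna (48.2 ± 0.704), Dysf (43.9 ± 2.03), Dag1 (43.4 ± 1.39) and Sgcd (39.9 ± 1.04), of which Dysf and Dag1 overlapped.

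Summed over all peaks of a gene, tags were lower in both detrained libraries than in both controls for 3 of the 9 genes, Dag1, Sgcd and Cav3. The same held for 35.2% of 13524 genes with peaks in both lists. Utrn alone was higher in both detrained libraries, against 24.3% of all genes, and the other 5 genes overlapped. The median log2 ratio was -0.05 over the 9 genes and -0.05 over all genes, so neither the counts nor the median set the group apart from the rest.

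Cav3 encodes caveolin-3, the muscle caveolin, and had the lowest ratio of the 9. Its tags were 259 and 280 in controls, against 171 and 147 in detrained mice, a log2 ratio of -0.76 (SD 0.12). Both detrained libraries lay well below both controls. Dag1, which encodes both chains of dystroglycan, held 1419 and 1504 normalised tags in controls and 1057 and 1106 in detrained mice, a log2 ratio of -0.43 (SD 0.05). Sgcd, for delta-sarcoglycan, held 630 and 745 in controls against 535 and 515, a log2 ratio of -0.38 (SD 0.12). For all 3 genes the called length was also shorter in detrained mice, at 24897 bp against 32688 bp for Dag1 and 13164 bp against 15427 bp for Sgcd. Per kb of called peak, the log2 ratio was -0.04 for Dag1, -0.15 for Sgcd and 0.71 for Cav3, so that the direction for Cav3 turned.

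Utrn, whose product utrophin is the close relative of dystrophin, held 669 normalised tags in C2 and 658 in C3, and 906 in Ex1 and 748 in Ex2. Its log2 ratio was 0.31 (SD 0.14), with the 2 detrained libraries apart from each other by more than the controls were. The control list covered 20101 bp of it and the detrained list 26005 bp, and per kb the log2 ratio was -0.06. Dmd itself held 704 and 893 in controls and 848 and 733 in detrained mice, with a log2 ratio of -0.01 (SD 0.20) and overlapping groups. Dysf (log2 ratio 0.06), Dtna (-0.05), Sgca (0.01) and Sgcb (-0.05) overlapped as well, with SDs from 0.05 for Dtna to 0.19 for Sgcb. In every library Sgcb had the fewest tags of the 9, from 91.3 to 117, all in a single peak of 1140 bp.

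**Figure D2:**
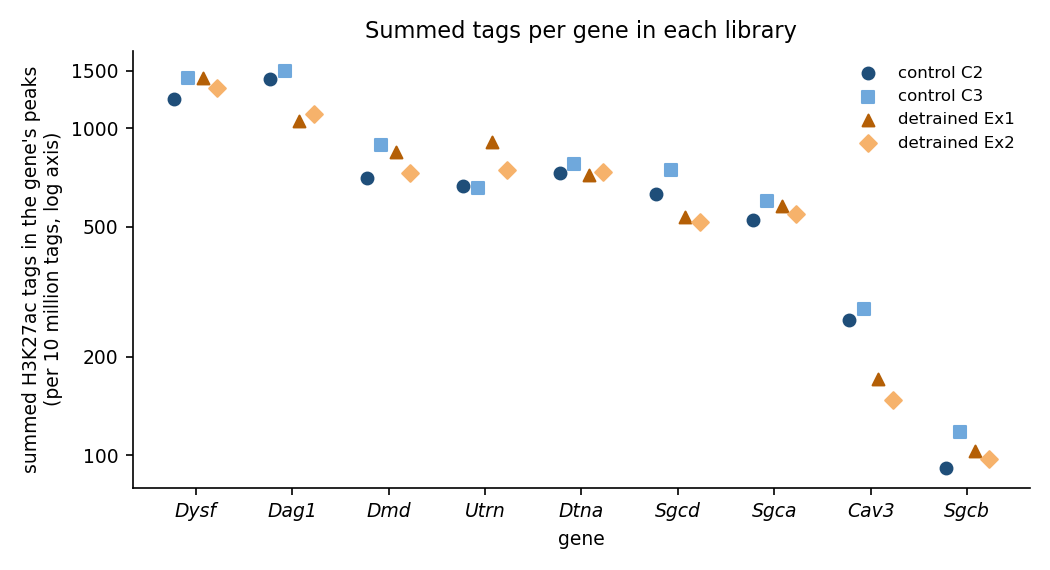
Summed normalised H3K27ac tags in the peaks of each gene (log axis), with 1 point per library. Both detrained libraries lie below both controls for Dag1, Sgcd and Cav3 and above them for Utrn, and the libraries overlap at the other genes.

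Around the starts, the 2 peak lists often cut the same stretch differently. At the full-length Dmd start, chrX, the control list had 2 peaks, of 3968 bp with 162 normalised tags and of 4887 bp with 219.5, where the detrained list had a single peak of 9704 bp with 377.7. The whole stretch held 320 and 444 normalised tags in controls, against 401 and 356 in detrained mice, and the groups overlapped (log2 ratio 0.00, SD 0.25). The start of the short Dmd transcript, whose product lacks the actin-binding end of dystrophin, lay deep in the gene and carried 33.5 normalised tags in control and 33.4 in detrained mice. Its densities were 25.7 and 30.5 tags per kb in controls and 30.4 and 21.2 in detrained mice, so the groups overlapped.

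Utrn carried its strongest mark away from the RefSeq start. A control peak of 662 bp at that start held 11.3 normalised tags (95% Poisson interval 8.40 to 14.9), in the lowest 12.6% of the control list by tags, and the detrained list had no peak that overlapped it. The window before this start, printed above, held 2 CpG dinucleotides and no match to any of the motifs. Upstream, at chr10:12866492-12869887, lay a peak that the authors' annotation called intergenic and that contains a GENCODE M21 start of Utrn at 12869365. It held 242.8 normalised tags in control and 253.3 in detrained mice. Its densities were 75.5 and 67.5 in controls, against 80.4 and 64.3 in detrained mice, with overlapping groups and a log2 ratio of 0.01 (SD 0.18). The window before that start was 75.2% G and C with 33 CpG dinucleotides, at percentile 96.5 of all windows by CpG count.

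Sgca, for alpha-sarcoglycan, also had borders that differed between the lists. The control list had a peak of 5010 bp with 508.9 normalised tags and one of 1016 bp with 53.2, and the detrained list had 1 peak of 8366 bp with 563.8. Density at the start was 93.6 and 110 tags per kb in controls and 69.4 and 65.6 in detrained mice, both lower, with a log2 ratio of -0.59 (SD 0.12). Summed over the whole stretch the tags were 524 and 601 in controls and 580 and 548 in detrained mice, and the groups overlapped. At Dag1 the control peak over the start ran for 10608 bp with 781.7 normalised tags, the most of any peak of the 9 genes, and the detrained list had 6660 bp with 615.4 and 2596 bp with 65.6. The summed tags of the Dag1 stretch were 743 and 822 in controls and 695 and 668 in detrained mice, both lower, with a log2 ratio of -0.20 (SD 0.08). They lay in 10608 bp of called peak in controls and 9256 bp in detrained mice. Per kb of that length the density was nearly equal, at 73.7 in control and 73.6 in detrained mice. Density of the Dag1 peak over the start itself was higher, at 70.0 and 77.5 in controls and 94.0 and 91.0 in detrained mice.

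At Sgcd the control peak over the start was 8773 bp long with 485.8 normalised tags, and the detrained list had 5621 bp with 322.1 and 3443 bp with 95. Together the Sgcd stretch held 439 and 534 normalised tags in controls and 431 and 404 in detrained mice, both lower, with a log2 ratio of -0.21 (SD 0.15). Sgcb, for beta-sarcoglycan, kept to 1140 bp in both lists, and its peak also contains the start of Gm43799. Its densities of 80.3 and 103 in controls and 90.7 and 85.5 in detrained mice overlapped.

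At Cav3 the called region reached from 693 bp before to 6320 bp after the start in control mice, and from 638 bp before to 1430 bp after it in detrained mice. The control peak held 251.6 normalised tags (95% Poisson interval 237 to 267) and the detrained peak 142.5 (131 to 154). By library these were 247 and 257 in controls and 152 and 134 in detrained mice, with no overlap. Density, on the other hand, was 35.2 and 36.6 tags per kb in controls and 73.6 and 64.8 in detrained mice. The peaks differed too much in length to count as shared below. The other peak assigned to Cav3, centred 14339 bp downstream in control mice, overlapped the neighbouring gene Oxtr. The authors' annotation placed it at the termination site of Cav3 in the control list and in a 3′ UTR of another transcript in the detrained list. It held 17.9 normalised tags in control and 16.2 in detrained mice.

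**Figure D3:**
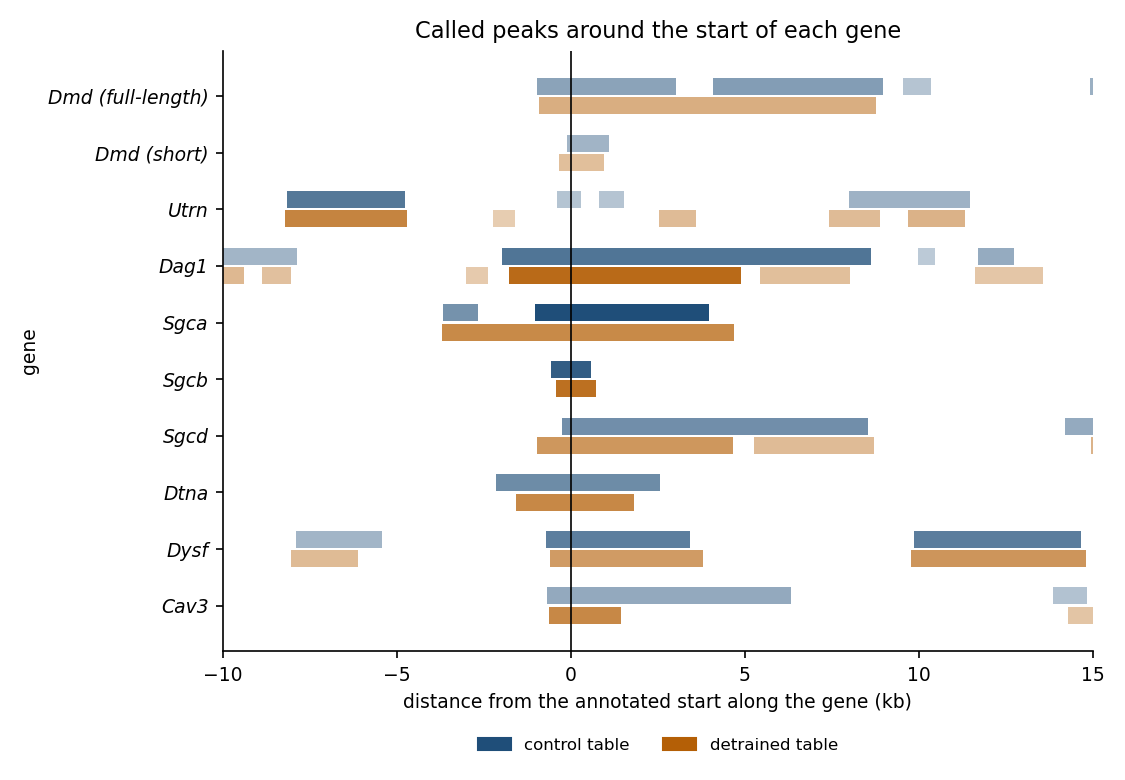
Called peaks from 10 kb before to 15 kb after the start of each gene, control above and detrained below, with darker bars for higher density in tags per kb. The x axis is distance along the gene in kb from the RefSeq start, or from the GENCODE M21 start for Dtna. The Cav3 region ends 6320 bp after the start in control and 1430 bp in detrained mice, while the Sgcb peak is 1140 bp in both.

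A control peak and a detrained peak that each covered at least 50% of the other, one to one, were taken as shared, and 32 pairs of the 9 genes met this among 26432 in all. Both detrained libraries were lower in density than both controls at 7 of the 32 (21.9%), against 27.2% of all shared peaks. Both were higher at 6 (18.8%), against 21.3%, and the groups overlapped at 19. With a difference of at least 1.5-fold besides, 2 were lower, at Dag1 and Sgca, against 2.06% of all shared peaks, and 1 was higher, at Utrn, against 1.1%. The median log2 ratio was 0.03 over the 32 and -0.03 over all. At 26 of the 32 peaks C3 exceeded C2 (81.3%, against 61.3% of all shared peaks), and summed fibre markers were higher in C3 than in C2 too, whose part in this was not tested. Without C2 the count of lower peaks was 16, against 45.5% of all shared peaks, and without Ex1 it was 13, against 43.4%. The count of higher peaks was 17 without C3, against 38.7% of all, and 13 without Ex2, against 37.2%. On the deposited log2 values, which are not divided by peak length, the median over the 32 was 0.20, where that over all shared peaks moved from -0.03 to 0.21. The share of lower among all non-overlapping peaks moved from 56.0% to 16.6% on those values, and to 44.2% with libraries scaled to tags in peaks.

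The 3 shared peaks past 1.5-fold also differed in called length, and on the scale of tags per peak the direction turned at Dag1 and Utrn and the groups overlapped at Sgca. The Dag1 peak centred 12075 bp into the gene had densities of 32.6 and 36.2 in controls and 19.6 in each detrained library, a log2 ratio of -0.81 (SD 0.08). Its called length was 1039 bp and 1948 bp, control first, with 35.5 and 38.0 normalised tags. The Utrn peak centred 44770 bp into the gene had densities of 23.6 and 26.9 in controls and 40.4 and 37.6 in detrained mice, a log2 ratio of 0.63 (SD 0.11). There the control length was 2572 bp and the detrained length 1338 bp, with 64.7 and 51.9 normalised tags. The Sgca start peak is described above.

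In density and in tags per peak alike, the detrained pair stood clear of the control pair in one direction at 6 of the 32 shared peaks. The 3 lower ones (9.38%, against 9.61% of all shared peaks) were at Dag1, Dysf and Sgcd, and the 3 higher ones (9.38%, against 6.36%) at Dmd, Dtna and Dysf. The Dag1, Dtna and Dysf 3′ end peaks were the strongest of their genes without a start, and the other 3 were picked after their values were seen.

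Dysf, for dysferlin, thus held one of each kind within a single gene. The peak over its upstream start, chr6:84007885-84012026, had densities of 64.3 and 69.0 in controls, against 54.5 and 53.1 in detrained mice, both detrained libraries lower. The log2 ratio of this peak was -0.31 in density (SD 0.05) and -0.22 in tags per peak. It also overlaps the gene Gm33024, whose start lies inside the detrained peak but not the control peak. The peak at the 3′ end of the gene, chr6:84208318-84213986, annotated to the transcription termination site, had densities of 45.7 and 52.1 in controls and 60.6 and 62.5 in detrained mice, both higher. Its log2 ratio was 0.33 in density (SD 0.10) and 0.37 in tags per peak. It held 276.9 normalised tags in control (95% Poisson interval 262 to 293) and 357.3 in detrained mice (340 to 376), with called lengths of 5668 bp and 5803 bp. On the deposited log2 values the ratio was 0.02 at the upstream start and 0.61 at the 3′ end, against 0.21 over all shared peaks, so the start was below and the end above that median.

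A ratio of the 2 Dysf peaks within a library does not depend on the scaling of that library. Tags at the 3′ end over tags at the upstream start were 0.974 in C2 and 1.03 in C3, and 1.46 in Ex1 and 1.55 in Ex2. Against the downstream Dysf start, whose density was 62.3 and 73.7 in controls and 60.7 and 55.3 in detrained mice, the ratio was 0.866 and 0.835 in controls and 1.15 and 1.31 in detrained mice. The peaks were chosen for their opposite directions, which these ratios restate. Between these ends, the Dysf peaks in intron 3 and intron 40 overlapped in density, at 26.6 and 35.2 against 35.0 and 28.1 tags per kb for the longest Dysf peak of 8009 bp, and at 37.9 and 46.8 against 40.9 and 38.5 for the peak in intron 40. In tags per peak the intron 40 peak was higher in both detrained libraries, at 76.9 and 94.96 normalised tags in controls and 110.8 and 104 in detrained mice, in a called length of 2032 bp and 2717 bp. Its log2 ratio was 0.33 in tags per peak and 0.58 on the deposited log2 values. That intron 40 peak had the highest enrichment over input of the control peaks without a start, at 3.42 on the log2 scale.

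**Figure D4:**
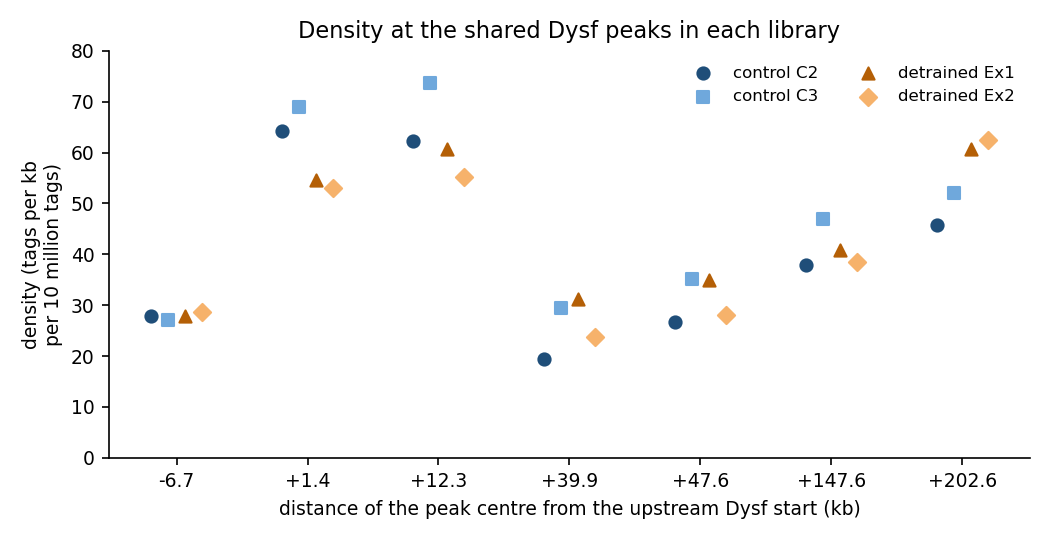
Density in normalised tags per kb at the 7 shared Dysf peaks, ordered by distance of the centre from the upstream start in kb, with 1 point per library. Both detrained libraries lie below both controls at the 2 start peaks and above them at the 3′ end peak, where density was 45.7 and 52.1 in controls and 60.6 and 62.5 in detrained mice.

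The other 4 peaks with both scales on one side lay in introns. At Dag1 the peak centred 27614 bp into the gene held 276 and 291 normalised tags in controls and 145 and 191 in detrained mice, with densities of 38.2 and 40.2 against 27.8 and 36.5. Its log2 ratio was -0.30 in density (SD 0.20) and -0.77 in tags per peak. At Sgcd the peak centred 271773 bp into the gene, in intron 5, was weak. It held 15.6 normalised tags in control (95% Poisson interval 12.1 to 19.8) and 9.04 in detrained mice (6.43 to 12.4). Its log2 ratio was -0.48 in density (SD 0.07). That SD can understate the spread between libraries, because the log2 values used to share out tags shrink weak peaks.

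Dtna, for alpha-dystrobrevin, which binds dystrophin on the inner face of the membrane, had its strongest distal peak 14706 bp from the nearest start. Densities there were 45.9 and 46.1 in controls and 56.9 and 68.3 in detrained mice, and tags were 191 and 192 against 208 and 250, so both scales were higher in both detrained libraries. The log2 ratio was 0.44 in density (SD 0.13) and 0.26 in tags per peak. Over the Dtna start, densities of 55.6 and 59.1 in controls and 68.5 and 68.2 in detrained mice went with 261 and 278 normalised tags in controls and 232 and 231 in detrained mice. There density was higher and tags per peak lower in both detrained libraries, in a peak of 4708 bp and 3390 bp. Deep in intron 2 of Dmd, 260276 bp from the start, density was 19.5 and 25.2 in controls and 29.0 and 26.4 in detrained mice, a log2 ratio of 0.32 (SD 0.20). With the small control peak beside it counted in, this Dmd stretch held 52.7 and 68.7 normalised tags in controls and 93.4 and 85.2 in detrained mice.

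**Figure D5:**
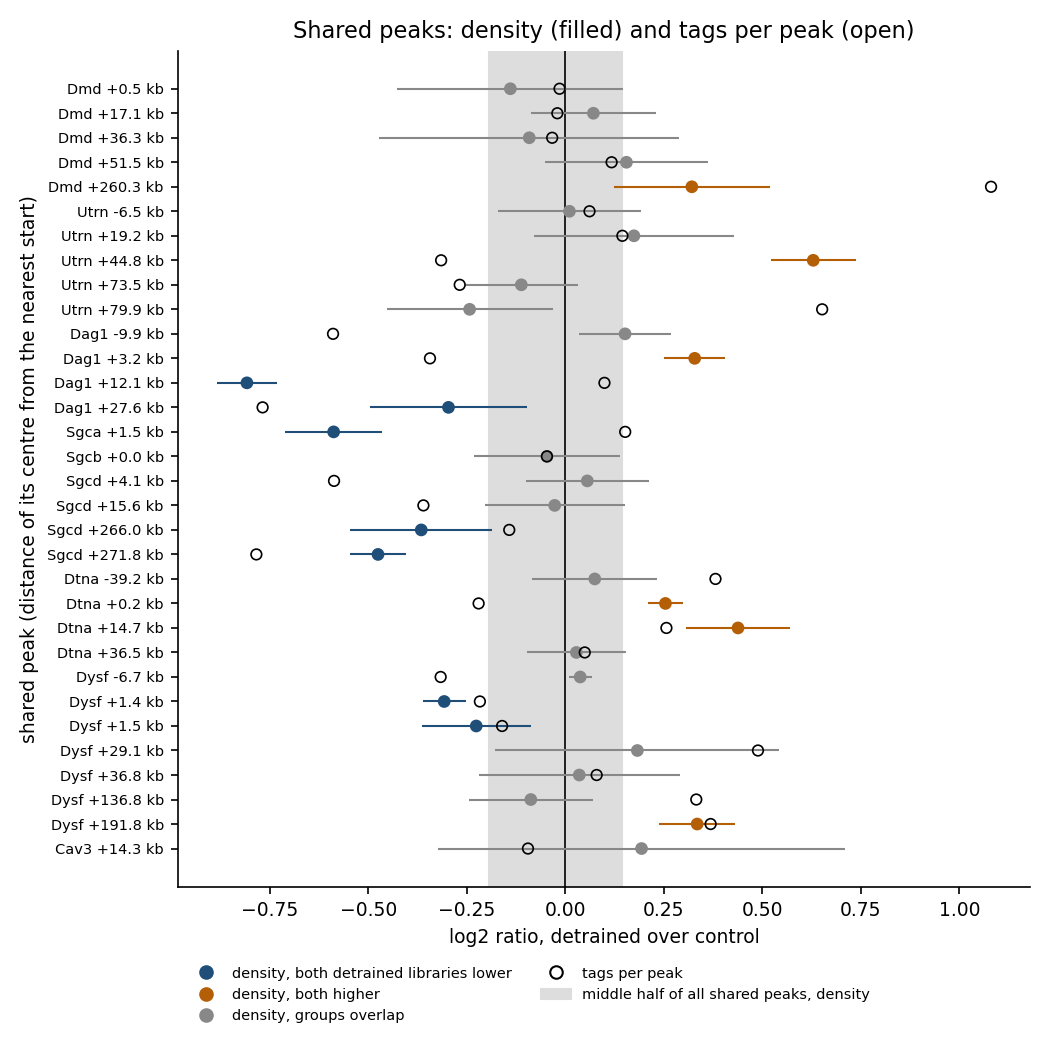
The 32 shared peaks by gene and distance of the centre from the nearest start, with the log2 ratio of detrained over control on the x axis. Filled points are density with the SD within groups (n = 2 per group), coloured by whether both detrained libraries were lower (7), higher (6) or overlapping (19), open points are tags per peak, and the grey band spans the quartiles of density over all 26432 shared peaks (-0.19 to 0.14).

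Peaks present in only 1 list were weak. Of the 59 control peaks 13 had no overlap in the detrained list, and of the 54 detrained peaks 7 had none in the control list, so that 78.0% and 87.0% overlapped, against 72.1% and 82.0% of all peaks. Only 1 of these held at least 30 normalised tags. It lay in intron 2 of Sgcd, chr11:47249996-47252013, with 62.4 normalised tags (95% Poisson interval 55.3 to 70.3), 62.0 in C2 and 62.8 in C3. Tags at this position in detrained mice were not listed and are not analysed here. Dtna had 4 peaks in the control list alone, the strongest with 28.5 normalised tags, and Dmd had 3, up to 17.2. Among the detrained peaks the strongest of this kind was at Utrn, 3059 bp into the gene, with 29.7 normalised tags.

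When peaks of both lists that overlapped were merged into loci, the 9 genes had 42 loci. Tags were lower in both detrained libraries at 15 (35.7%), against 29.5% of 31776 loci, and higher at 10 (23.8%), against 28.1%. The lowest ratio was at Dag1, centred 18569 bp into the gene, with 131 and 136 normalised tags in controls and 39.0 and 43.9 in detrained mice, where the called length was 5936 bp and 1701 bp. Density at this Dag1 locus was 22.2 and 22.97 in controls and 23.0 and 25.9 in detrained mice, the opposite direction. The highest was in intron 11 of Utrn, with 22.9 and 25.9 in controls and 112 and 74.8 in detrained mice, where the length was 989 bp and 3168 bp. Density at this Utrn locus was 23.4 and 26.4 in controls and 35.5 and 23.7 in detrained mice, and overlapped. Both were picked after their values were seen. Within Dag1, 5 of the 6 loci had fewer tags in both detrained libraries, while in density 2 of its 4 shared peaks were lower, 1 was higher and 1 overlapped.

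Other genes of the pathway are given for context. Their 127 shared peaks included 4 past 1.5-fold without overlap (3.15%, against 3.16% of all shared peaks), and the counts below stand against 27.2% lower and 21.3% higher among all shared peaks. Of 33 shared peaks of the 12 partners of the complex, such as Sspn and the syntrophins, 5 were lower (15.2%) and 10 higher (30.3%) without overlap, and 2 were past 1.5-fold. These were upstream of Sntb2, a syntrophin, with 27.8 and 31.6 tags per kb in controls and 51.2 and 45.2 in detrained mice, and at Plec, for the linker protein plectin, with 30.8 and 24.5 against 44.0 and 40.8. Laminin, integrin and collagen VI genes of the basement membrane had 36 shared peaks, 10 lower and 10 higher (27.8% each), with 1 past 1.5-fold at Lamc1 (24.98 and 31.3 against 20.7 and 14.8). Among the enzymes that glycosylate dystroglycan 7 of 17 shared peaks were lower (41.2%) and 3 higher (17.6%). Summed tags per gene were lower for 8 of 11 genes of that list, for 1 of 11 partners, for 4 of 8 laminin, integrin and collagen genes and for 2 of 13 repair and caveola genes. Over the 4 lists this was 15 of 43 genes (34.9%, against 35.2% of all genes), and 6 were higher (13.95%, against 24.3%). Membrane repair and caveola genes had 41 shared peaks, 13 lower (31.7%) and 7 higher (17.1%), with 1 past 1.5-fold upstream of Anxa1, an annexin, at 22.9 and 15.6 against 30.8 and 31.9. At Sntb2, Plec and Anxa1 the tags per peak were slightly lower in detrained mice, with log2 ratios of -0.08, -0.15 and -0.01.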

How the data were processed

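H3K27ac ChIP-seq and input libraries of mouse quadriceps were used as 2 deposited peak tables, control and detrained. Per the labels, reads were aligned with Bowtie 1.2 to mm10, and per the study's methods the authors called peaks with HOMER on both libraries of a group against its input. The deposited score is a signal, the pooled tags scaled to a library of 10000000 (normalised tags), and the authors' log2 values per library come from a regularized transform, which shrinks weak peaks. The tables also hold fold changes, p-values and adjusted p-values over input, which were not used. Pooled tags were shared between libraries by library total and log2 value. At weak peaks that shrinkage draws the libraries of a group together, so their SDs can be too small and their groups can look more separate. Density was the tags plus 0.5 per kb of called peak. Control columns matched only the group. Libraries of a group came from separate animals. Steps were tested on simulated data, with scipy 1.17.1, pandas 2.3.3 and numpy 2.4.6 under Python 3.11.15. The deposited distances were checked for peaks whose gene has a RefSeq start, 34837 in control and 30207 in detrained mice. In each list 91.2% of these implied a RefSeq start within 10 bp on GRCm38.p6. Members, gene lists, markers and the rule for named peaks (promoter, strongest distal, longest, past 1.5-fold, or in 1 list with at least 30 normalised tags) were chosen with earlier results of these data known. Alternatives covered scale, overlap, merging, pseudocount, input and each library left out.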

Additional observations from a re-analysis of the deposited data

How the results depend on the processing

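No paired analysis was possible because no label ties a control animal to a detrained one, and the control columns match the labels by group and not by replicate number. Over the shared peaks of the 9 genes the log2 ratio had a median of 0.03, and of 0.20 on the deposited log2 values. It ranged from -0.14 (without C2) to 0.11 when 1 library was left out. Of these 32 peaks, 7 were lower (all shared peaks 27.2%), and this was 11 in tags per peak (all 28.8%), 3 of 13 with 80% overlap (all 23.7%), 15 of 42 merged loci (all 29.5%) and 7 to 16 with 1 library left out (all 35.9% to 45.5%). The 6 higher ones (all 21.3%) became 1 of 13 with 80% overlap (all 16.5%), 10 of 42 merged loci (all 28.1%), 14 on the deposited log2 values (all 55.0%) and 8 to 17 with 1 library left out (all 28.8% to 38.7%). With at least 30 normalised tags, 36 control and 35 detrained peaks were left, and 1 promoter peak in control. Counting peaks that contain a start, an alternative chosen after seeing the data, gave 12 promoter peaks in control against 2 and 11 in detrained mice against 0. In tags per peak, over merged loci and on the deposited log2 values the Utrn peak past 1.5-fold turned to -0.31, -0.32 and -0.11, Sgca at its start to 0.15, 0.0073 and 0.39, Dag1 at 12075 bp to 0.10, 0.10 and 0.33 and Dag1 at its start to -0.34, -0.20 and -0.11. The Dtna start turned to -0.22 in tags per peak and -0.22 over merged loci. On the deposited log2 values the Dysf starts turned to 0.019 and 0.074 and the Sgcd peak at 266031 bp to 0.056. Summed tags per called kb, also chosen after seeing the data, turned Utrn to -0.060 and Cav3 to 0.71. Tags per peak and merged loci are not divided by called length, but they count only tags inside called peaks, so they still depend on the borders. The cause of the changes was not tested. Of 352 values of single peaks, under the alternatives that can change one, 280 moved by less than the spread within groups, and of 90 gene sums 81 did. Both totals include the values with 1 library left out. By construction these cannot move by more than that spread, so they say nothing about stability.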
